A study of Mus musculus with 30 samples.

Results

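The heat shock proteins and DnaJ chaperones of the mouse were followed in CD4+ T cells and CD11c+ cells from DO11.10 RAG2-/- BALB/c mice. The group held 66 of the 17097 genes that had a probe set annotated to a single symbol. Its members were all genes whose symbol is Hsp with a family letter (a, b, d, e or h) and a number, Hsp90, or Dnaj with a family letter (a, b or c) and a number, and no measured level entered that choice. Of their 147 probe sets, each gene was read from the one with the highest mean over the 30 arrays. Hspa1a, Hspd1, Hsp90ab1 and Hspb6 were not among the genes so found and were not analysed here.

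Each cell type had 5 conditions with 3 arrays for each. These were mice primed with ovalbumin (OVA) and given abatacept at 10 mg/kg, primed mice given control IgG at 10 mg/kg, mice tolerised through OVA in the drinking water, mice primed only, and unimmunised mice. Priming was a subcutaneous injection of OVA, 100 micrograms per mouse, with complete Freund's adjuvant. Abatacept is a CTLA-4 fusion protein that binds CD80 and CD86 and blocks costimulation through CD28. All mice were 8 to 10 weeks old, lacked RAG2 and carried the DO11.10 T cell receptor transgene for an OVA peptide, so the controls share the deletion and the single receptor. The labels give the tolerising dose as 50 mg/ml in one place and as 50 mg/kg in another. Cells of the 3 primed groups, of both cell types, were taken 10 days after immunisation, and no such day is given for tolerised or unimmunised mice. The source of CD4+ T cells was the axillary nodes for all 3 primed groups, the mesenteric nodes for tolerised mice, and a pool of spleen and lymph nodes for unimmunised mice. For CD11c+ cells such a pool served every group, and both preparations had a stated purity over 90%. The labels do not say whether arrays of a group came from separate mice, so every p-value reflects only how far these arrays vary, which may be technical.

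Chaperones of the HSP70 family hold unfolded stretches of protein in a cycle driven by ATP. DnaJ proteins bring clients to HSP70 and start ATP hydrolysis through their J domain, HSP110 proteins exchange the nucleotide, and HSP90 takes over many signalling clients, among them T cell kinases. Separate sets serve the cytosol, the mitochondrion and the endoplasmic reticulum (ER): heat and other stress to cytosolic proteins induce the first through heat shock factor, and unfolded protein in the ER induces the last through the unfolded protein response.

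Levels are log2 values as deposited, given per array in replicate order or as mean ± SD of 3 arrays. Array medians lay between 4.4555 and 4.544, and arrays of a group correlated at 0.983 to 0.995 over all probe sets. T cell markers averaged between 8.87 and 10.23 on CD4+ arrays and between 6.03 and 7.35 on CD11c+ arrays. Dendritic cell markers averaged between 4.44 and 6.39 on CD4+ arrays and between 8.29 and 9.40 on CD11c+ arrays. Each of these sets was thus higher in its own cell type. The CD4+ unimmunised arrays stood apart, because the 6 erythroid markers averaged between 8.30 and 8.72 there and between 3.74 and 4.26 on the other CD4+ arrays, and the 8 neutrophil markers between 10.14 and 10.46 there and between 3.57 and 5.74 on the others. Their T cell markers averaged between 8.87 and 8.97, below their own neutrophil markers, against 9.84 to 10.23 on the other CD4+ arrays. The CD4+ label therefore does not mean T cells alone for the unimmunised group. On CD11c+ arrays macrophage and monocyte markers averaged between 8.81 and 10.43, neutrophil markers between 6.72 and 10.30 and erythroid markers between 6.39 and 7.93. In every CD11c+ group the median of the macrophage and monocyte markers lay above that of the dendritic cell markers. The CD11c+ label likewise does not mean dendritic cells alone. The Y-linked transcript Eif2s3y was at 8.89 ± 0.06 in tolerised and 8.62 ± 0.18 in primed CD4+ arrays and at 8.58 ± 0.05 in primed CD11c+ arrays (SD, n = 3). It read 8.76, 5.92 and 8.20 in CD11c+ control IgG arrays and had means between 2.51 and 2.62 in each of the other groups, so groups of some comparisons differed in it. The salivary gene Amy1 read 11.4 and 11.3 on CD11c+ control IgG replicates 2 and 3 and 12.1 on CD11c+ unimmunised replicate 2.

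Sequences upstream of the start were found for 53 of the 66 genes in RefSeq (GRCm38.p6), as 68 windows of 300 bases from 250 before to 50 after the start. The heat shock element, the binding site of heat shock factor, was searched on both strands as 3 units (GAANNTTCNNGAA or TTCNNGAANNTTC) and as 2 units (GAANNTTC or TTCNNGAA), where each match to the first also holds the second. The 3-unit element stood in 5 of the 68 windows (7.35%), against 0.603% of the 32851 windows of all genes, and the 2-unit element in 22.1% against 15.1%. The ER stress element, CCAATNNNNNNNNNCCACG or its reverse complement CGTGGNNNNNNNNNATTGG, stood in 3 windows (4.41%) against 0.119% of all windows, those of Hsp90b1, Hspa5 and Dnajc3. The TATA box TATAAA, on the given strand, stood in 4.41% of the windows against 8.32%. The 5 windows with the 3-unit element were those of Dnajb6, Hsph1 and Hspe1. Some windows of 1 gene overlap, as those of Dnajb6 and of Hsph1 do, so windows are not separate genes. A match is a description of letters, not a site shown to be used.

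These upstream sequences are shown because the genes respond to different stresses, in the cytosol or in the ER, and are described by those groups next. The 250 bases before the start are given in the direction of the gene, with the units of a heat shock element in capitals.
Hspe1, chr1:55087898-55088147, plus strand: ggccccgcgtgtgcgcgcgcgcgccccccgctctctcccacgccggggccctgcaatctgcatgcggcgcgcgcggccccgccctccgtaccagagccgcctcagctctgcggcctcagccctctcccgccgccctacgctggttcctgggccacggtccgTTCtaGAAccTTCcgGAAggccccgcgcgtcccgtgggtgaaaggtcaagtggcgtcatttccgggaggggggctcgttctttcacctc
Hspa1b, chr17:34959239-34959488, minus strand: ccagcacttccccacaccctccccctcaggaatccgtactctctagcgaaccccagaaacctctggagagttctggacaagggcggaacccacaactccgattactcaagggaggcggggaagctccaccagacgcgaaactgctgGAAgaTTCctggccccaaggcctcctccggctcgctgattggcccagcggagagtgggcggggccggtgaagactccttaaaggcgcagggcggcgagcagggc
Dnajb4, chr3:152193846-152194095, minus strand: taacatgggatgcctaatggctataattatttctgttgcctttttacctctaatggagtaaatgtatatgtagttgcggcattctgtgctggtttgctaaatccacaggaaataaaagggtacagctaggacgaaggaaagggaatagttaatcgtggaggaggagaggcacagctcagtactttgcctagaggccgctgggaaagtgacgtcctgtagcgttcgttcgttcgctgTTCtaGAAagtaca
The Hspe1 window held 2 overlapping matches to the 3-unit element, which began 89 and 84 bases before the start, while Hspa1b and the second window of Dnajb4 held 1 match each to the 2-unit element. In the ER genes the capitals mark the CCAAT box and the CCACG of the ER stress element, read on either strand.
Hsp90b1, chr10:86705445-86705694, minus strand: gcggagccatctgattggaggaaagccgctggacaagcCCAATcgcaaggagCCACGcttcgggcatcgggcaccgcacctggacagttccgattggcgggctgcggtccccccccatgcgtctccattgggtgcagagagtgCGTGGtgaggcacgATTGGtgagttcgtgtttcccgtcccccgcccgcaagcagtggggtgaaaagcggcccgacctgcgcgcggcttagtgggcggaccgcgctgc
Hspa5, chr2:34771840-34772089, plus strand: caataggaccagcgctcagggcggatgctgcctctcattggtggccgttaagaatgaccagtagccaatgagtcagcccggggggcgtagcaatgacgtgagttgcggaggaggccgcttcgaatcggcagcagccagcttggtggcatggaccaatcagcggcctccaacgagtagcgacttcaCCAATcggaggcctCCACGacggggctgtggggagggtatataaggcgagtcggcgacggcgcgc
Dnajc3, chr14:118937682-118937931, plus strand: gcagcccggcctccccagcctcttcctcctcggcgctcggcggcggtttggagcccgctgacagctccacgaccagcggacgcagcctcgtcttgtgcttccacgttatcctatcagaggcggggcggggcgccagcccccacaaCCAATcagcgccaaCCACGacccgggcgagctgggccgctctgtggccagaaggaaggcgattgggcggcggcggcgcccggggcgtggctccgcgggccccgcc
Hsp90b1 held 2 such elements in opposite directions, and Hspa5 and Dnajc3 held 1 each.

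Of the 66 genes, 45 lay above the array median on all 30 arrays and 9 on none. The 9 were the DnaJ genes Dnajb3, Dnajb8, Dnajc22 and Dnajc5g and the small heat shock protein genes Hspb2, Hspb3, Hspb7, Hspb9 and Hspb11. To be tested, a gene had to exceed the array median on 3 or more of a cell type's 15 arrays. In each cell type 52 members did so, 51 of them in both. Hspa12a, Hspa1l, Dnajc27 and Dnajc5b were the other members tested in neither. Dnajc6 passed only in CD4+ T cells and Dnajc12 only in CD11c+ cells, so their difference between cell types was required to some degree by that filter. In CD4+ T cells Hspa1b and Dnajb14 exceeded the median on the 3 unimmunised arrays only, so some difference from those arrays was required of them too. A gene was called at a limma p, adjusted by Benjamini-Hochberg over all genes tested, under 0.05.

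Priming and oral tolerance were each set against no immunisation in arrays of CD4+ T cells. The unimmunised arrays also differed from both groups in source tissue, markers of other cells and Eif2s3y. An effect of antigen cannot be told apart from these differences, and falls and rises below are differences between groups of arrays. Of the 12 members listed as heat-inducible 7 fell in primed and 6 in tolerised arrays, among them Dnajb4 and Hsp90aa1, and of 9 mitochondrial members 6 and 7 fell, while 0 of either set rose. Hspe1 is counted in both sets. Dnajc3 of the ER and Dnajb5 of the cytosol and nucleus rose in both. In primed arrays 5 of 52 members rose and 18 fell, against 23.3% and 24.2% of all genes tested. In tolerised arrays 4 rose and 21 fell, against 20.3% and 29.3%. The counts of falls include Hspa1b and Dnajb14, which passed the filter through the unimmunised arrays. The median log2 difference of the members was -0.06 in primed and -0.18 in tolerised arrays, beside 0.02 and -0.03 over all genes. The 2 comparisons share the unimmunised arrays, so their values are not independent of each other.

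**Figure D1:**
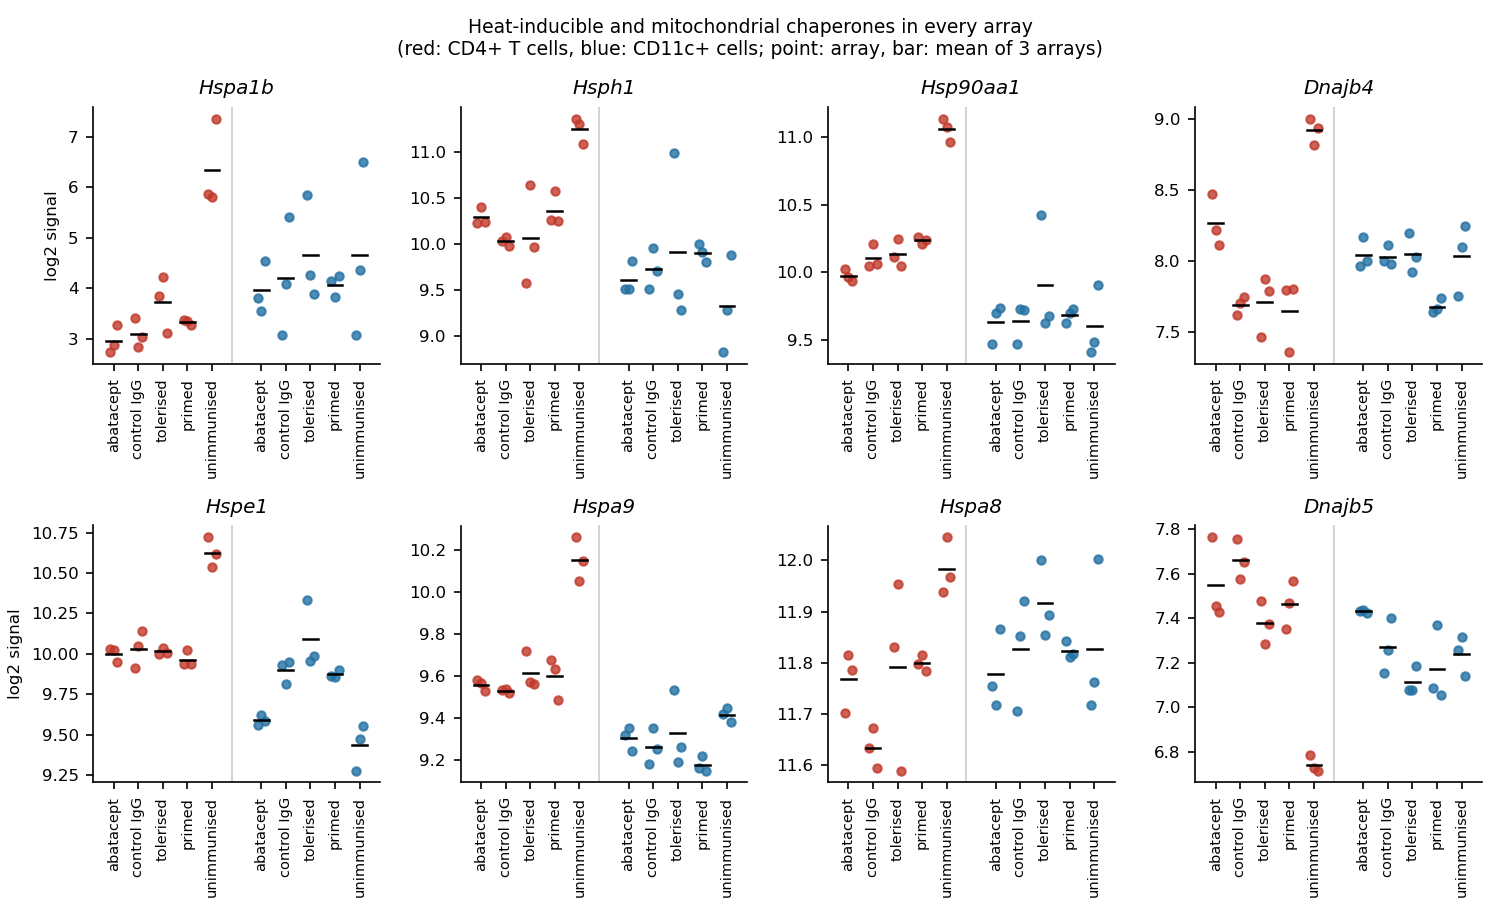
Log2 signal of 8 chaperone genes on each of 30 arrays, by group within CD4+ T cells (red) and CD11c+ cells (blue), with a point for each array and a bar for the mean of 3. In Hspa1b, Hsph1, Hsp90aa1, Dnajb4, Hspe1 and Hspa9 the 3 CD4+ unimmunised arrays lie above all other CD4+ arrays, in Dnajb5 they lie below them, and in Hspa8 they overlap the tolerised arrays.

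Among the cytosolic HSP70 and HSP110 genes, Hspa1b, the classic stress-induced HSP70, read 3.38, 3.36 and 3.28 in primed and 3.86, 4.23 and 3.11 in tolerised CD4+ arrays, against 5.87, 5.80 and 7.36 in unimmunised arrays. The unimmunised arrays did not overlap either group, and only they stood above the array medians. The log2 differences were -3.01 in primed and -2.61 in tolerised arrays, given as a description because the gene was tested only through the group in which it was high. It has a near-identical neighbour, Hspa1a, and probes may read both.

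Hsph1, the HSP110 that recharges HSP70, read 10.26, 10.57 and 10.25 in primed and 9.57, 10.64 and 9.97 in tolerised arrays, against 11.37, 11.31 and 11.09 in unimmunised arrays. Tolerised replicate 2 lay well above the other tolerised arrays, yet no array of either group reached the unimmunised ones. The log2 difference was -0.89 (SE 0.20, adjusted p = 0.0022) in primed and -1.19 (SE 0.20, adjusted p = 0.00022) in tolerised arrays. Hspa2, an HSP70 best known from the testis, fell by 0.82 and 0.61 (adjusted p = 0.00074 and 0.0053), and Hspa4l, a second HSP110 gene, fell by 0.87 in primed arrays (adjusted p = 0.0018) and read -0.18 in tolerised arrays without a call. Hspa8, an HSP70 that is also made without stress, is counted here among the heat-inducible members. It read 11.80 ± 0.02 in primed, 11.79 ± 0.18 in tolerised and 11.98 ± 0.06 in unimmunised arrays (SD, n = 3), with log2 differences of -0.18 and -0.19 (adjusted p = 0.09 and 0.075). The mean of its probe sets gave -0.35 and -0.40 instead, both called (adjusted p = 0.0025 and 0.00089).

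Hsp90aa1, the inducible cytosolic HSP90, read 10.26, 10.21 and 10.24 in primed and 10.11, 10.24 and 10.05 in tolerised arrays, against 11.13, 11.07 and 10.96 in unimmunised arrays. These groups were tight and far apart, with log2 differences of -0.82 and -0.92 (SE 0.08, adjusted p = 1.1e-06 and 3.7e-07). Of the J proteins that feed cytosolic HSP70, Dnajb4 read 7.79, 7.36 and 7.80 in primed and 7.46, 7.87 and 7.79 in tolerised arrays, against 9.0, 8.82 and 8.94 in unimmunised arrays. That is 2.41-fold and 2.32-fold lower (adjusted p = 5.1e-06 and 7.7e-06). Dnajb1, the main stress-induced J protein, fell by less, 0.34 and 0.33 (adjusted p = 0.008 and 0.009), and Dnajb2, which sends clients to the proteasome, fell by 0.52 and 0.97 (adjusted p = 0.0068 and 5.9e-05). Dnaja1 showed -0.13 and -0.10 and the small heat shock gene Hspb1 -0.06 and 0.13, none of them called. Over the 12 heat-inducible members, Hspa1b included, the median was -0.50 in primed and -0.26 in tolerised arrays.

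Dnajb5 went the other way. This J protein of the cytosol and nucleus read 7.35, 7.47 and 7.57 in primed and 7.48, 7.28 and 7.37 in tolerised arrays, against 6.79, 6.73 and 6.72 in unimmunised arrays. It rose by 0.72 and 0.63 (SE 0.10, adjusted p = 3.9e-05 and 0.00011), with no overlap of arrays.

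In the mitochondrial set, 6 of 9 members fell in primed and 7 of 9 in tolerised arrays, and 0 rose. Not all of these calls were stable. Those of Dnajc11 and Dnajc28 in primed arrays and of Dnajc15 in tolerised arrays ended without some single arrays. That of Dnajc28 in tolerised arrays ended when its probe sets were averaged. Hspe1, the lid of the mitochondrial chaperonin, read 9.94, 10.02 and 9.94 in primed and 10.00, 10.04 and 10.01 in tolerised arrays, against 10.72, 10.54 and 10.62 in unimmunised arrays (-0.66 and -0.61, adjusted p = 7.7e-06 and 1.6e-05). Hspa9, the mitochondrial HSP70, fell by 0.55 and 0.54 (adjusted p = 4.8e-05 and 6.1e-05). Its J partner Dnaja3 fell by 0.70 and 0.64 (adjusted p = 6.4e-05 and 0.00014). Dnajc19, a part of the import motor, fell by 0.47 and 0.61 on its brightest probe set, but another bright probe set had the opposite sign in primed arrays and the mean of its probe sets gave no call in either comparison.

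The ER set was split, with 2 members higher and 2 lower in primed arrays and 3 higher and 2 lower in tolerised arrays among 13 tested, and 1 of the 2 lower was Dnajb14 in each. Dnajc3, which restrains the kinase PERK and works as a J protein in the ER, read 10.00, 10.08 and 9.87 in primed and 9.78, 9.88 and 9.71 in tolerised arrays, against 9.46, 9.36 and 9.48 in unimmunised arrays. It rose by 0.55 and 0.36 (adjusted p = 3.7e-05 and 0.0013). Dnajc1, an ER membrane J protein, rose by 0.36 in tolerised arrays (adjusted p = 0.0053). In primed arrays it was called at 0.25 (adjusted p = 0.043), and that call ended without either of primed replicates 2 and 3 or unimmunised replicates 1 and 3, with only those groups in the fit and without the filter (adjusted p up to 0.15). Hspa5, the HSP70 of the ER known as BiP, read 10.53, 10.49 and 10.54 in primed and 10.67, 10.64 and 10.49 in tolerised arrays, against 10.42, 10.44 and 10.34 in unimmunised arrays. Its difference was 0.12 in primed arrays (adjusted p = 0.22) and 0.20 in tolerised arrays (adjusted p = 0.039), a call that ended without tolerised replicate 1 or 2 or any 1 unimmunised replicate (adjusted p = 0.13, 0.1, 0.066, 0.052 and 0.12). Hsp90b1, the HSP90 of the ER, fell by 0.29 in tolerised arrays (adjusted p = 0.0073) and read -0.12 in primed arrays without a call.

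Other chaperones moved along with these genes. Of 13 subunits of the cytosolic chaperonin TRiC and of prefoldin, 10 fell in both comparisons and 0 rose, among them Cct6a at -0.50 and -0.53 and Cct4 at -0.33 and -0.30. Of 19 cochaperones of HSP90 and HSP70, 3 rose and 6 fell in primed arrays and 4 rose and 10 fell in tolerised arrays. Bag2, which slows the HSP70 ligase CHIP, fell by 2.21 and 2.33 to levels below the array medians, and Fkbp5, a glucocorticoid-induced partner of HSP90, rose by 1.06 and 1.34. Of 14 cell cycle genes 11 fell in primed and 14 in tolerised arrays.

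Markers of other cells moved with all of these values. All 6 erythroid, all 8 neutrophil and, of 8 macrophage markers, 8 and 7 were lower in primed and tolerised arrays (medians of -3.81 and -4.42 for erythroid and of -7.26 and -5.29 for neutrophil markers), and 8 and 7 of 9 T cell markers were higher. The source tissue and Eif2s3y differed between the same groups too. The part that these differences had in the chaperone values was not tested, and in bulk arrays fewer cells of a type and less RNA per cell cannot be told apart. Of the 23 calls in primed arrays 15 were kept whichever array was left out, and of the 25 in tolerised arrays 21 were.

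**Figure D2:**
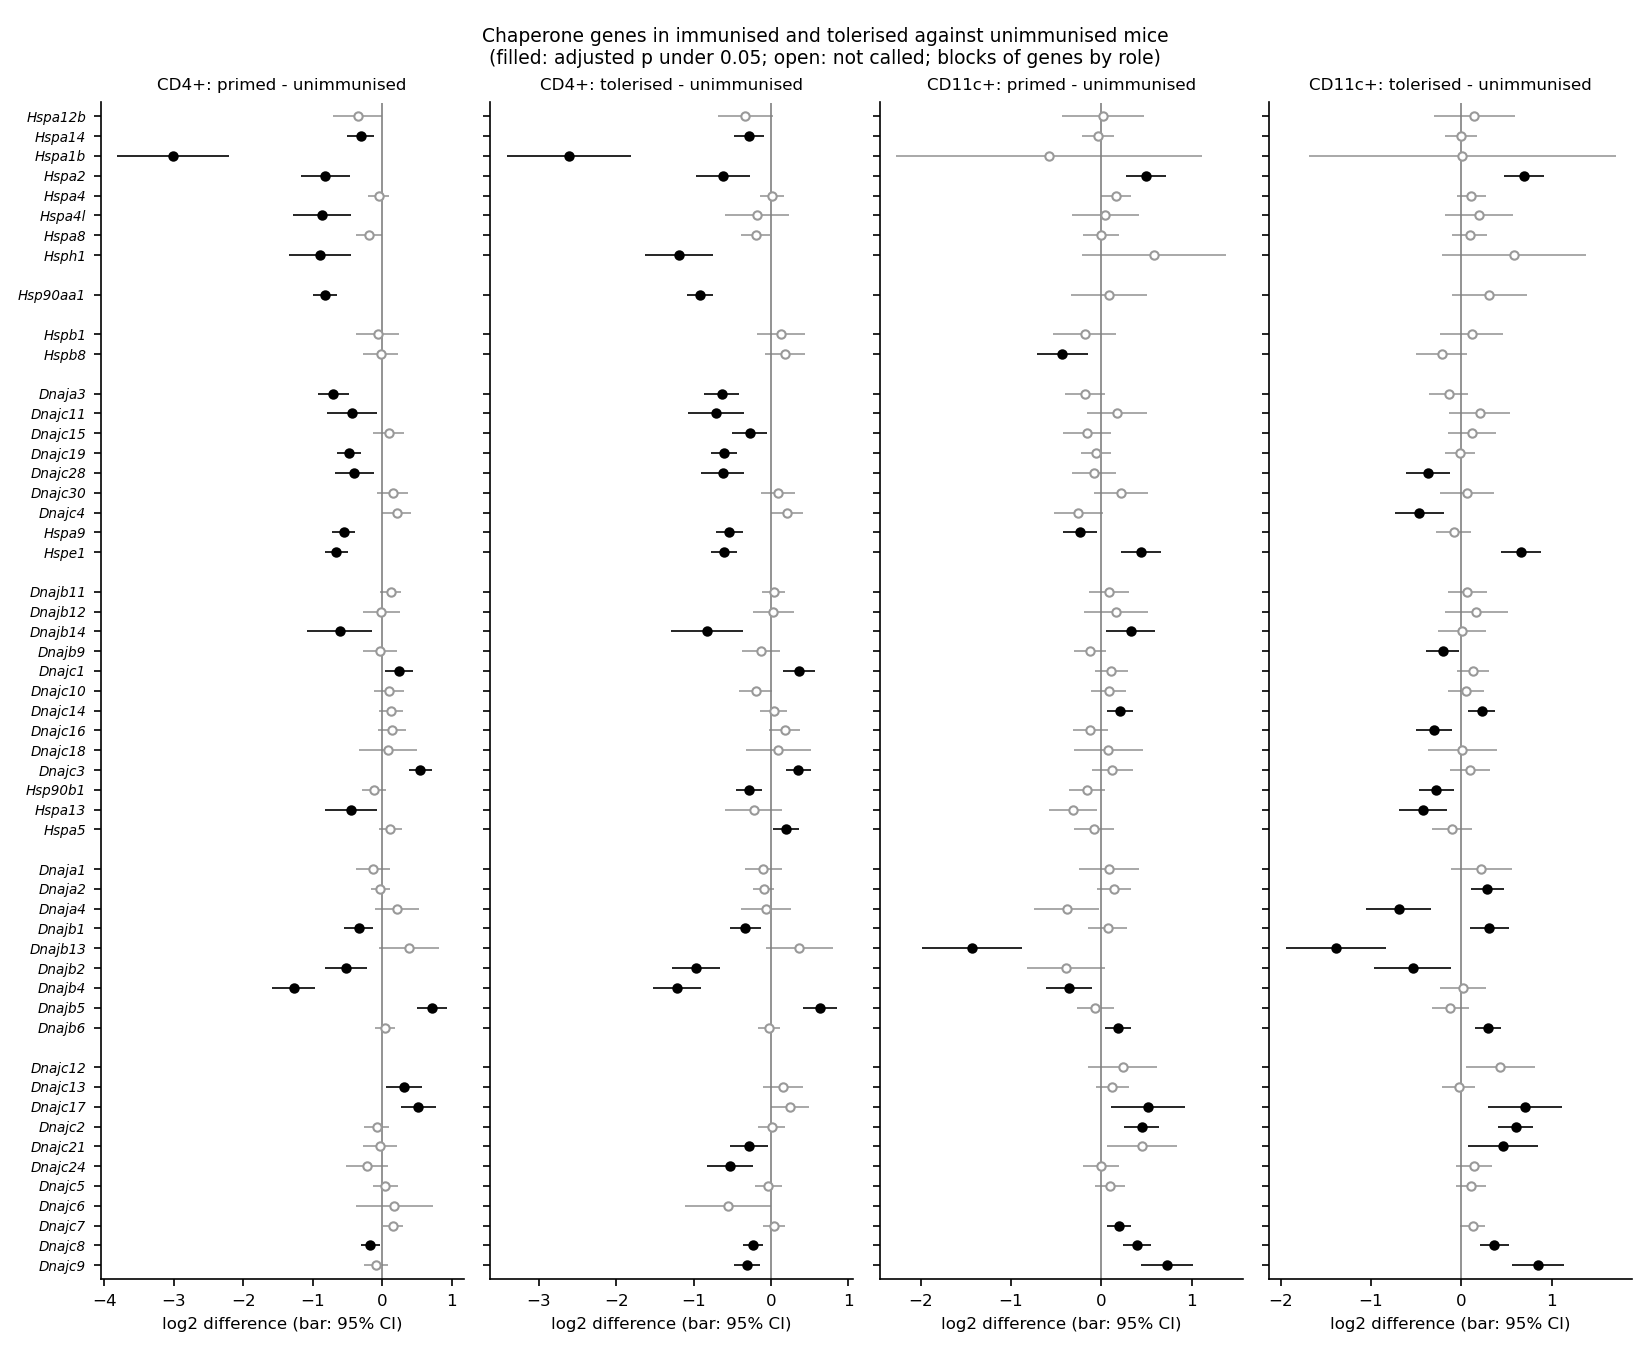
Log2 difference of each tested chaperone gene, with its 95% confidence interval, in primed and in tolerised against unimmunised arrays of CD4+ T cells (left panels) and CD11c+ cells (right panels). Genes are in blocks by role and filled points passed an adjusted p of 0.05. The mitochondrial block lies mostly left of 0 in CD4+ T cells, and Dnajc9, Dnajc2, Dnajc8, Hspe1 and Hspa2 lie right of 0 in both CD11c+ panels.

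What a block of costimulation did to these genes was read from abatacept against control IgG, both given to primed mice. In CD4+ T cells the mitochondrial J protein Dnajc15 and the ER chaperones Hsp90b1, Dnajb11 and Hspa13 fell, along with Hspa2, and Dnajb4, Dnajb9 and Hspa12b rose. That made 3 higher and 5 lower of 52 members, beside 3.33% and 13.4% of all genes tested, with a median of -0.09 beside -0.07.

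Dnajc15, also called MCJ, sits in the inner mitochondrial membrane and is known to restrain complex I of the respiratory chain in mouse CD8+ T cells. It read 6.60, 6.42 and 6.64 under abatacept, against 7.27, 7.19 and 7.37 under control IgG. The highest abatacept array lay below the lowest control IgG array and below all other CD4+ arrays. Dnajc15 was 1.64-fold lower (log2 difference -0.72, SE 0.10, adjusted p = 0.00029), the smallest adjusted p of any member in that comparison, and its call was kept in every alternative.

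Hsp90b1, which folds integrins and Toll-like receptors in the ER, read 10.38, 10.46 and 10.28 under abatacept, against 10.68, 10.76 and 10.66 under control IgG. The groups did not overlap, and the log2 difference was -0.33 (SE 0.08, adjusted p = 0.011), with -0.28 and an adjusted p of 0.053 without abatacept replicate 3. Dnajb11, a J partner of BiP, read 9.83, 9.80 and 9.90 under abatacept, against 10.14, 10.06 and 10.06 under control IgG (-0.24, SE 0.07, adjusted p = 0.024). Its call ended without abatacept replicate 2 or any 1 control IgG replicate (adjusted p between 0.052 and 0.087). Hspa13, an HSP70-like protein of microsomes, read 5.97, 5.98 and 6.54 under abatacept, against 6.83, 6.64 and 6.70 under control IgG (-0.56, SE 0.17, adjusted p = 0.038). Abatacept replicate 3 lay close to the control arrays, and the call ended without abatacept replicate 1 or 2 or any 1 control IgG replicate (adjusted p between 0.07 and 0.14).

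BiP itself was not called. Hspa5 read 10.50, 10.49 and 10.34 under abatacept, against 10.34, 10.45 and 10.51 under control IgG (0.01, 95% confidence interval -0.16 to 0.18, adjusted p = 0.94). Dnajb9, a J protein of the ER that is induced by the unfolded protein response and represses IRE1, read 9.18, 8.78 and 8.82 under abatacept, against 8.47, 8.50 and 8.56 under control IgG. It rose by 0.42 (SE 0.11, adjusted p = 0.019), opposite to the other called ER genes, and this call ended without abatacept replicate 1 or either of control IgG replicates 1 and 2 (adjusted p = 0.056, 0.061 and 0.058). Of 18 other genes of the unfolded protein response and ER folding 10 fell and 0 rose (median -0.29), among them the sensor Atf6 at -1.07 (3.88 under abatacept, below the array medians), the ER partner Sdf2l1 at -0.92, the disulfide isomerase Pdia6 at -0.46 and the secreted ER factor Manf at -0.45.

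Dnajb4 read 8.47, 8.22 and 8.11 under abatacept, against 7.62, 7.70 and 7.74 under control IgG. All abatacept arrays lay above all control IgG arrays and below the unimmunised ones. It rose 1.5-fold (log2 difference 0.58, SE 0.14, adjusted p = 0.012) and, with Dnajc15, was one of the 2 calls kept whichever array was left out. Other heat-inducible members were not called: Hspa1b differed by -0.14, Hsph1 by 0.26, Hsp90aa1 by -0.13, Hspa8 by 0.13, Hspe1 by -0.03, Hspb1 by -0.04, Dnaja1 by 0.14, Dnajb1 by 0.05, Hspb8 by 0.26 and Dnaja4 by -0.21. Hspa4l read 6.61, 6.45 and 6.57 under abatacept, against 5.91, 6.12 and 5.92 under control IgG. These arrays did not overlap, and the difference of 0.56 missed the threshold (adjusted p = 0.057). Hspa12b, a distant HSP70 relative of the endothelium, rose by 0.56 (adjusted p = 0.032) and Hspa2 fell by 0.53 (adjusted p = 0.035). The Hspa12b call ended without abatacept replicate 2 or 3 or either of control IgG replicates 1 and 3 (adjusted p between 0.056 and 0.12), and the Hspa2 call without abatacept replicate 2 or 3 or control IgG replicate 2 or 3 (adjusted p between 0.09 and 0.15). The count of 8 fell to 5 without abatacept replicate 2 or 3 or control IgG replicate 2 or 3 and to 4 without control IgG replicate 1.

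Cell cycle genes moved more than any chaperone set, with 14 of 14 lower under abatacept and a median of -2.11, and of 9 immediate early genes 5 were higher, led by Dusp1, Jun and Fos at 1.58, 1.55 and 2.27. Both groups came from axillary nodes. No neutrophil or dendritic cell marker was called, and of the other lists 1 of 6 erythroid markers was lower, 1 of 8 macrophage and 2 of 5 natural killer markers were higher and 1 of 9 T cell markers went each way. Eif2s3y read between 2.41 and 2.76 on all 6 arrays. The part that the lower cell cycle level had in the chaperone values was not tested.

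**Figure D3:**
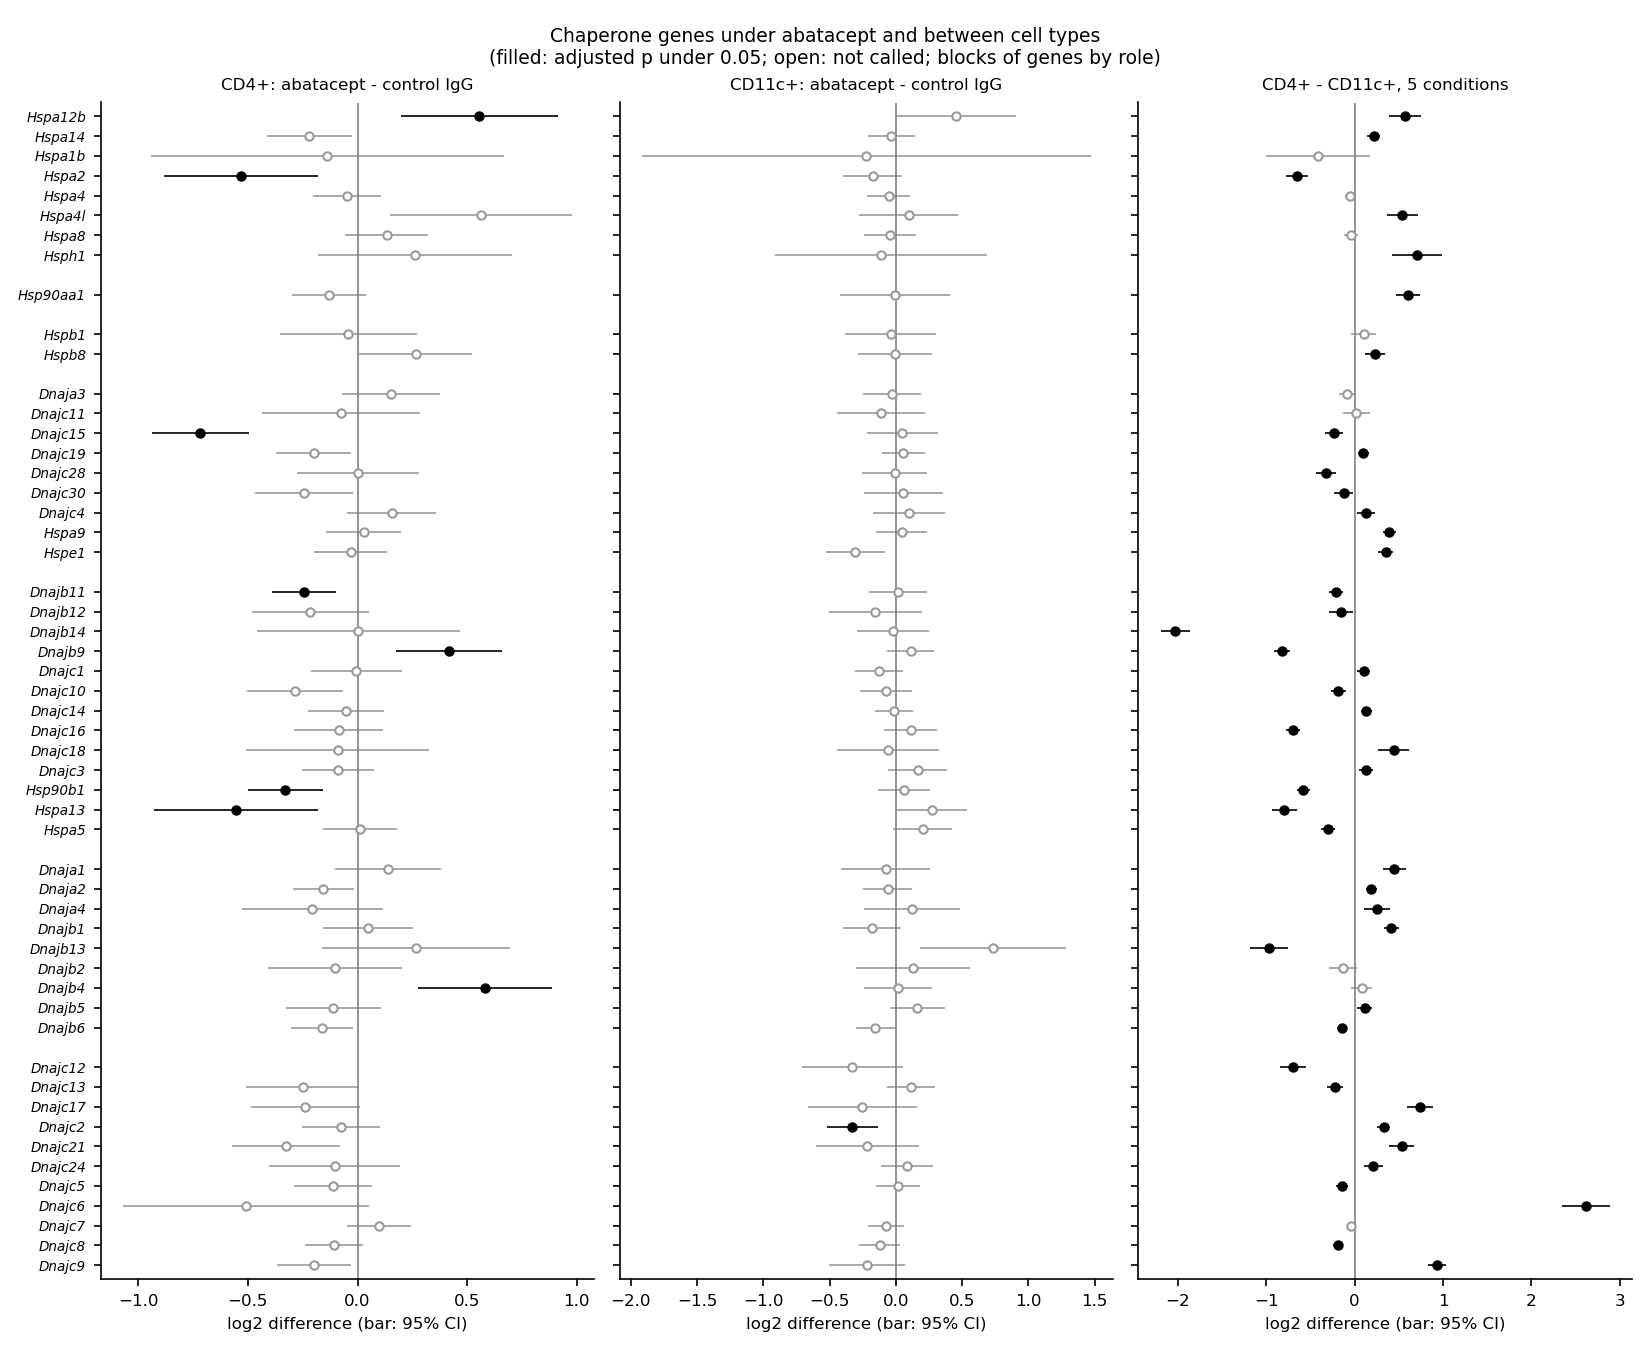
Log2 difference of each tested chaperone gene, with its 95% confidence interval, for abatacept relative to control IgG (left, CD4+ T cells, and middle, CD11c+ cells) and for CD4+ T cells against CD11c+ cells over the 5 conditions (right). Filled points passed an adjusted p of 0.05. There are 8 filled points in the left panel, led by Dnajc15 at -0.72, and 1 in the middle panel, Dnajc2, while 44 are filled on the right.

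Tolerised and primed CD4+ arrays, which both differed from the unimmunised ones, were next set against each other. Of 52 members 3 were called, 1 higher and 2 lower, against 6.24% and 8.43% of all genes. Dnajc15 read 7.06, 7.08 and 6.85 in tolerised arrays, against 7.38, 7.28 and 7.44 in primed arrays. It fell by 0.37 without overlap (SE 0.10, adjusted p = 0.023). Hspa4l read 6.75, 7.67 and 6.75 in tolerised arrays, against 6.28, 6.35 and 6.47 in primed arrays, and rose by 0.69 (adjusted p = 0.025), with tolerised replicate 2 far above the rest. Dnajb2 read 7.31, 7.86 and 7.19 in tolerised arrays, against 7.91, 7.82 and 7.97 in primed arrays (-0.45, adjusted p = 0.046), and here replicate 2 overlapped the primed arrays. The other stress and ER members were not called: Hspa1b differed by 0.39, Hsph1 by -0.30, Hsp90aa1 by -0.10, Hspa8 by -0.01, Hspe1 by 0.05, Hspa5 by 0.08 and Hsp90b1 by -0.17.

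Markers of other cells and the source tissue differed between tolerised arrays, from mesenteric nodes, and primed arrays, from axillary nodes. Of 6 mast cell and basophil markers 5 were higher, and their mean lay between 4.81 and 6.21 on tolerised arrays, against 3.65 to 3.75 on primed arrays. Natural killer markers were higher in 3 of 5 tested (means of 6.06 to 6.79, against 5.02 to 5.22), and neutrophil markers in 2 of 8 (4.33 to 5.74, against 3.57 to 3.95). Macrophage markers were higher in 3 of 8 and dendritic cell markers in 3 of 7. Cell cycle genes were lower in 10 of 14 (7.43 to 7.84, against 8.30 to 8.45). The part of these differences in the 3 calls was not tested.

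None of the 3 calls was kept whichever array was left out. The Dnajc15 call ended without tolerised replicate 3 or primed replicate 1 or 3 (adjusted p = 0.079, 0.07 and 0.084), and the Hspa4l call without primed replicate 1 or 2 (adjusted p = 0.083 and 0.065). The Dnajb2 call ended without tolerised replicate 1 or 3 or any 1 primed replicate (adjusted p between 0.071 and 0.16). Without tolerised replicate 2 the count was 5, and Hsph1 was then called lower (-0.59, adjusted p = 0.014). Without primed replicate 1 the count was 0, and without primed replicate 2 or 3 it was 1. Control IgG against primed CD4+ arrays gave 0 calls in either direction by limma (background 0% and 0.0872%) and 4 members at an unadjusted p under 0.05.

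Priming and oral tolerance were set against no immunisation in CD11c+ cells too. In primed and tolerised mice the nuclear and ribosomal J proteins Dnajc9, Dnajc2 and Dnajc8 rose together with Hspe1 and Hspa2, and Dnajb13, a J protein of the cilium and sperm tail, fell. In primed arrays 10 of 52 members rose and 4 fell, against 25.5% and 13.2% of all genes tested. In tolerised arrays 11 rose and 9 fell, against 31.9% and 16.7%. Their medians of 0.08 and 0.10 were close to those of all genes, 0.09 and 0.10. Whether these changes differed from those of CD4+ T cells was not tested.

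Dnajc9, which is also a chaperone of histones H3 and H4, read 9.0, 8.94 and 8.96 in primed and 9.26, 8.89 and 9.09 in tolerised arrays, against 8.08, 8.12 and 8.51 in unimmunised arrays. It rose by 0.73 and 0.84 (SE 0.13, adjusted p = 0.00074 and 0.00015), with no overlap. Dnajc2, the J protein of the ribosome-associated complex, read 9.74, 9.67 and 9.79 in primed and 9.83, 9.89 and 9.94 in tolerised arrays, against 9.21, 9.18 and 9.47 in unimmunised arrays. It rose by 0.45 and 0.60 (adjusted p = 0.0015 and 0.00011), though 1 of its 2 other bright probe sets had the opposite sign in each comparison. Dnajc8, a splicing factor with a J domain, rose by 0.40 and 0.37 (adjusted p = 0.00069 and 0.00076).

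Hspe1 read 9.87, 9.85 and 9.90 in primed and 10.33, 9.96 and 9.98 in tolerised arrays, against 9.28, 9.47 and 9.55 in unimmunised arrays. It rose by 0.44 and 0.66 (adjusted p = 0.0039 and 0.00015). The mitochondrial HSP70 gene Hspa9 did not share this. Hspa9 fell by 0.24 in primed arrays (adjusted p = 0.044), a call lost without any 1 array of the 2 groups (adjusted p between 0.059 and 0.11). In tolerised arrays it read -0.09 without a call. Hspa2 rose by 0.50 and 0.69 (adjusted p = 0.0017 and 1e-04). Dnajb13 read 5.60, 5.79 and 6.01 in primed and 5.25, 5.98 and 6.29 in tolerised arrays, against 7.43, 7.45 and 6.81 in unimmunised arrays (2.69-fold and 2.62-fold lower, adjusted p = 0.00066 and 0.00047).

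The ER genes and the heat-inducible genes moved less evenly. In tolerised arrays Hspa13 fell by 0.43 (adjusted p = 0.0097) and Hsp90b1 by 0.28 (adjusted p = 0.019), and the Hsp90b1 call ended without tolerised replicate 2 or 3 or unimmunised replicate 3 (adjusted p = 0.059, 0.059 and 0.065). Of the heat-inducible genes, Dnaja4 fell in tolerised arrays, with a log2 difference of -0.69 (adjusted p = 0.003), to levels not above the array medians. Its call was kept whichever array was left out and in every other alternative. Dnajb1 rose by 0.31 in tolerised arrays (adjusted p = 0.018), and that call ended without tolerised replicate 1 or unimmunised replicate 1 (adjusted p = 0.084 and 0.085). Hspa5 read -0.08 and -0.11, Hsp90aa1 0.08 and 0.31, Hsph1 0.58 and 0.58, Hspa8 -0.003 and 0.09, Dnaja1 0.08 and 0.22, Dnajc15 -0.16 and 0.12, and Hspb1 -0.19 and 0.11 in primed and tolerised arrays, none called. Hspa1b read -0.58 with a 95% confidence interval from -2.27 to 1.12 in primed arrays, and 0.01 with one from -1.68 to 1.70 in tolerised arrays, too wide to tell.

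Of the 13 TRiC and prefoldin subunits tested in CD11c+ cells, 6 rose in primed and 8 in tolerised arrays and 0 fell, among them Tcp1 at 0.33 and 0.39 and Cct5 at 0.36 and 0.40. Cell cycle genes rose in 10 and 12 of 14. Neutrophil markers were higher in 7 of 7 tested in both comparisons (medians 2.38 and 2.56), and macrophage markers were lower in 7 of 8 (medians -0.97 and -1.38). T cell markers were higher in 6 of 8 tested in primed and 7 of 8 in tolerised arrays, with means of 6.87 to 7.07 and 6.96 to 7.35, against 6.03 to 6.68 in unimmunised arrays. Dendritic cell markers were higher in 8 and 7 of 8, with means of 9.32 to 9.40 and 8.99 to 9.20, against 8.29 to 8.45. Eif2s3y differed too between primed and unimmunised arrays, at means of 8.58 and 2.59, and Amy1 read 12.1 on unimmunised replicate 2. An effect of antigen cannot be told apart from these differences, and their part in the chaperone values was not tested. Dnajc9, Dnajc2 and Hspe1 are also genes with higher levels in CD4+ T cells (0.33 for Dnajc2 over the 5 conditions). The count of 14 in primed arrays fell to 8 without primed replicate 1 or 3, to 7 without primed replicate 2 and to 9 without unimmunised replicate 2 or 3. The 6 calls kept whichever array was left out were those of Dnajc9, Dnajc2, Dnajc8, Hspe1, Hspa2 and Dnajb13, and 12 of 20 were kept in tolerised arrays.

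Tolerised against primed CD11c+ arrays gave 0 called members (background 1.39% higher and 1.45% lower), with 6 at an unadjusted p under 0.05, and control IgG against primed gave 0 (background 0% and 0.0196%), with 3. Abatacept against control IgG gave 0 higher and 1 lower, against 6.43% and 8.86% of all genes. Dnajc2 read 9.51, 9.48 and 9.42 under abatacept, against 9.83, 9.67 and 9.90 under control IgG, and fell by 0.33 (adjusted p = 0.023). The call ended without any 1 abatacept replicate or without either of control IgG replicates 1 and 3 (adjusted p between 0.058 and 0.12). It also ended when the probe sets of Dnajc2 were averaged, and 1 of its 2 other bright probe sets had the opposite sign. Without control IgG replicate 2 the count of called members was 2. Hspe1 read 9.56, 9.62 and 9.59 under abatacept, against 9.93, 9.81 and 9.95 under control IgG, without overlap, at -0.31 and an adjusted p of 0.054. Dnajb13 was not called either, with 6.86 ± 0.34 under abatacept and 6.13 ± 0.08 in control IgG arrays (SD, n = 3), a limma difference of 0.73 with an adjusted p of 0.063. The stress and ER members differed by less, with Hspa1b at -0.22, Hsph1 at -0.11, Hsp90aa1 at -0.01, Hspa8 at -0.05, Hspa5 at 0.20, Hsp90b1 at 0.06, Dnaja1 at -0.08, Dnajb1 at -0.18, Hspb1 at -0.04 and Dnajc15 at 0.05, none called. Eif2s3y differed between these groups, as given above, and Amy1 was high on control IgG replicates 2 and 3.

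**Figure D4:**
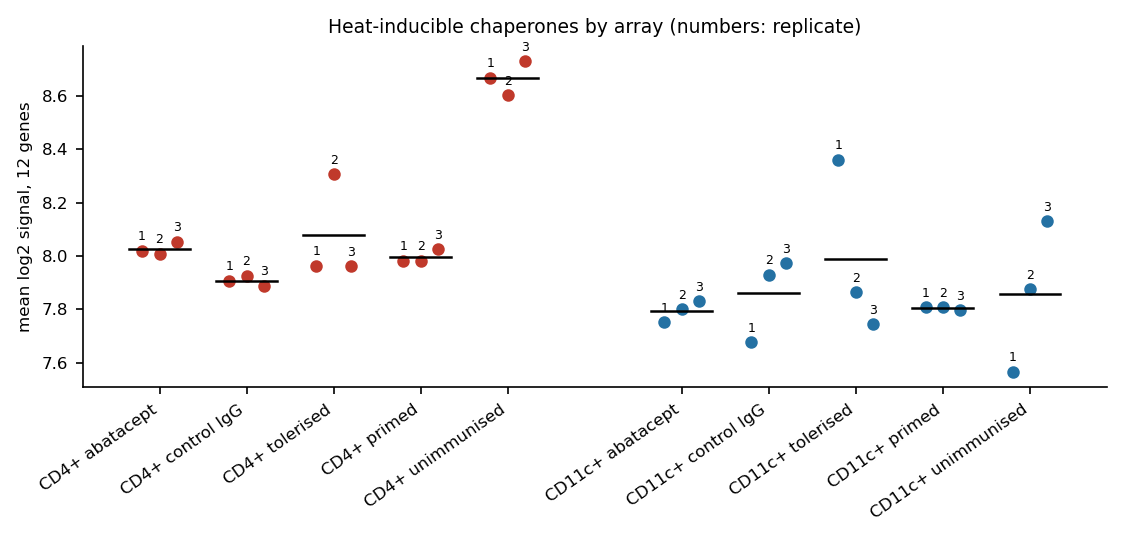
Mean log2 signal of the 12 heat-inducible chaperone genes on each array, by group, with the replicate number beside each point and a bar for the mean of 3 arrays. CD11c+ tolerised replicate 1 at 8.36 and CD11c+ unimmunised replicate 3 at 8.13 stand above their groups, and the CD4+ unimmunised arrays lie above all others.

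Within groups, the heat-inducible genes varied between arrays of the same condition. Their mean over 12 genes was 8.36, 7.87 and 7.74 in CD11c+ tolerised arrays, 7.57, 7.88 and 8.13 in CD11c+ unimmunised arrays and 7.96, 8.31 and 7.96 in CD4+ tolerised arrays, but 7.81, 7.81 and 7.80 in CD11c+ primed arrays. Replicate 1 was the highest of 3 for 10 of the 12 genes in CD11c+ tolerised arrays, and replicate 2 for 10 of the 12 in CD4+ tolerised arrays. Hsph1 read 10.99, 9.45 and 9.28 in CD11c+ tolerised arrays, and Hspa1b read 3.08, 4.37 and 6.51 in CD11c+ unimmunised arrays. The range of 0.616 within CD11c+ tolerised arrays exceeded the difference between any 2 CD11c+ group means, which lay between 7.80 and 7.99, as the plot of heat-inducible genes by array shows.

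CD4+ T cells and CD11c+ cells were compared as averages over the 5 conditions. Most heat-inducible members were higher in CD4+ T cells and most ER members lower. Of 53 members tested 25 were higher and 19 lower, against 45.9% and 37.1% of all genes, so the count itself was near the background. Of 12 heat-inducible members 8 were higher and 0 lower (median 0.30), and of 13 ER members 4 were higher and 9 lower (median -0.21), beside a median of 0.07 over all genes. The mitochondrial set was split, with 4 higher and 3 lower of 9 (median 0.02), and of 8 cytosolic HSP70 and HSP110 members 4 were higher and 1 lower (median 0.09).

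Among the ER genes, Hsp90b1 averaged 10.69 ± 0.20 in CD4+ and 11.26 ± 0.13 in CD11c+ arrays (SD over 15 arrays of each, which includes differences between conditions), with no overlap of arrays (-0.58, SE 0.04, adjusted p = 1.5e-13). Dnajb9 averaged 8.73 ± 0.18 and 9.55 ± 0.13 in the same order, again without overlap (-0.82, adjusted p = 4.4e-15). Hspa13 was 1.73-fold lower and Dnajc16, a J protein of the ER membrane, 1.62-fold lower, and Hspa5 differed by -0.30 (adjusted p = 1.1e-07) with overlapping arrays. Dnajb14, a J protein of the ER membrane used in degradation, averaged 4.18 ± 0.42 in CD4+ arrays, which is below the array medians, and 6.21 ± 0.18 in CD11c+ arrays. Its log2 difference of -2.03 is given as a description, because of the CD4+ arrays only the unimmunised ones exceeded the array median. Dnajb14 is counted among the members called lower, as is Dnajc12, which passed the filter in CD11c+ cells only. Dnajc3 and Dnajc1 were slightly higher in CD4+ T cells, at 0.13 and 0.10.

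On the other side, Dnajc6, or auxilin, which uncoats clathrin vesicles and is best known from neurons, averaged 6.12 ± 0.45 in CD4+ and 3.50 ± 0.38 in CD11c+ arrays, the second below the array medians. The log2 difference of 2.62 is given as a description, because the gene passed the filter only through the CD4+ arrays. It is counted among the members called higher. Dnajc9 was 1.91-fold higher without overlap (adjusted p = 3.4e-15). Dnajc17, a J protein with an RNA-binding domain, was 1.68-fold higher. Hsph1 was higher by 0.70 (adjusted p = 5.2e-05), Hsp90aa1 by 0.61, Dnaja1 by 0.45, Dnajb1 by 0.42, Hspa9 by 0.39 and Hspe1 by 0.35. Hspa8 and Hspb1 were not called, at -0.04 and 0.10, and Dnajc15 was lower by 0.23 (adjusted p = 0.00015). Outside the ER set, Dnajb13 differed by -0.97 (adjusted p = 6.9e-09) and Hspa2 by -0.65 (adjusted p = 4.7e-10), both with overlapping arrays.

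**Figure D5:**
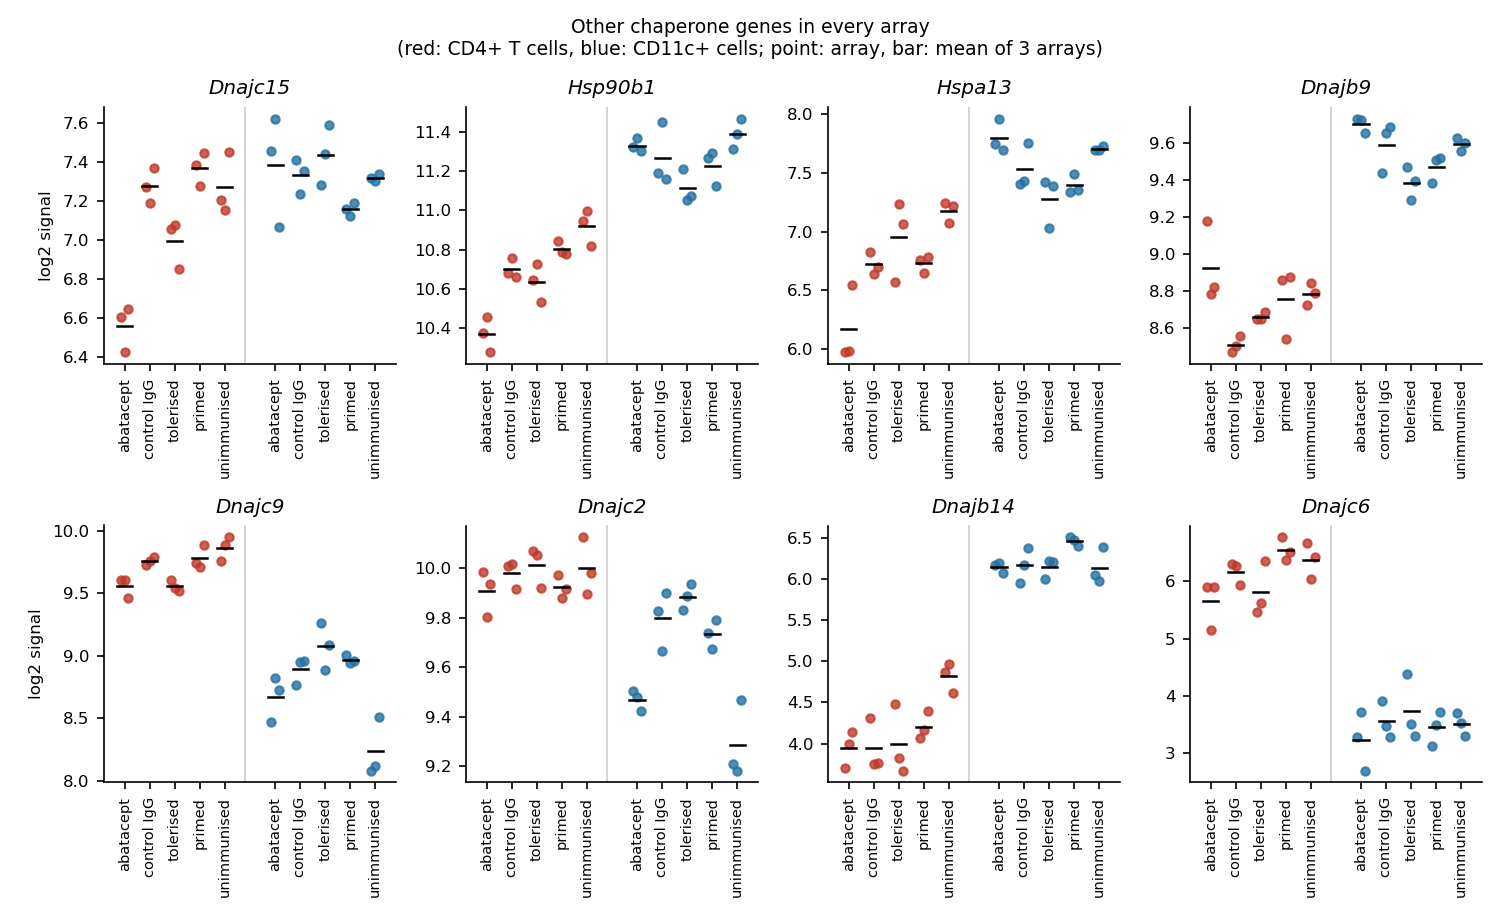
Log2 signal of 8 further chaperone genes on each of 30 arrays, by group within CD4+ T cells (red) and CD11c+ cells (blue), with a point for each array and a bar for the mean of 3. Dnajc15 is low on the 3 CD4+ abatacept arrays, between 6.42 and 6.64, and Dnajb9, Hsp90b1, Dnajb14, Dnajc9 and Dnajc6 separate the cell types. Dnajc6 passed the filter only through the CD4+ arrays, and in Dnajb14 the unimmunised arrays were the only CD4+ ones above the array median.

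Of 18 other genes of the unfolded protein response and ER folding 14 were lower in CD4+ T cells and 3 higher, with Atf6 at -2.31 and Sdf2l1 at -1.53, and 13 of 13 TRiC and prefoldin subunits were higher (median 0.23). Since the CD4+ unimmunised arrays also held markers of other cells, the comparison was repeated without the unimmunised arrays of both cell types. It then gave 23 members higher and 23 lower. The ER set again had 4 higher and 9 lower, the mitochondrial set had 3 higher and 3 lower (median -0.10) and the cytosolic HSP70 and HSP110 set 4 higher and 4 lower (median 0.04). Of the others, 9 of 13 TRiC and prefoldin subunits were higher. Among heat-inducible members 8 were higher and 2 lower, the 2 being Hspa1b at -0.94 and Hspa8 at -0.09 (adjusted p = 0.049 for Hspa8). The Hspa1b value is given as a description, because among the arrays kept only CD11c+ ones exceeded the array median. The same holds for Dnajb14, and both are in the counts of lower members. With all arrays Hspa1b read -0.42 without a call. Tissue of origin differs between the cell types in 4 of the 5 conditions, and neutrophil and macrophage markers were lower in CD4+ T cells in 7 and 8 of 8, so tissue, other cells and cell type cannot be told apart here.

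An interaction term over all 30 arrays tested whether the 2 cell types differed in their response to abatacept. The difference between cell types was called for 4 of 53 members, 1 in the higher and 3 in the lower direction, against 4.97% and 9.29% of all genes. The CD4+ difference minus the CD11c+ difference was -0.77 for Dnajc15 (adjusted p = 0.0017), from -0.72 in CD4+ and 0.05 in CD11c+ cells. For Hspa13 it was -0.83 (adjusted p = 0.01), from -0.56 and 0.27, and for Hsp90b1 -0.39 (adjusted p = 0.021), from -0.33 and 0.06. For Dnajb4 it was 0.57 (adjusted p = 0.039), from 0.58 and 0.01.

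The Dnajc15 and Hspa13 calls were kept whichever of the 12 arrays was left out. The Hsp90b1 call ended without CD4+ abatacept replicate 3, CD4+ control IgG replicate 2, CD11c+ abatacept replicate 2 or either of CD11c+ control IgG replicates 1 and 3 (adjusted p between 0.052 and 0.073), and the Dnajb4 call was kept only without CD4+ abatacept replicate 3 or CD11c+ abatacept replicate 2. Leaving out CD4+ control IgG replicate 2 or CD11c+ control IgG replicate 1 or 3 brought the count to 2.

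Of the 18 genes of the unfolded protein response and ER folding 10 were called in the lower direction and 0 in the higher (median -0.46), and of 14 cell cycle genes 10 were called lower (median -1.79). For tolerised against primed mice the interaction called 0 members higher and 1 lower, against 4.94% and 6.27%. This was Dnajc15 at -0.65 (adjusted p = 0.0073), from -0.37 in CD4+ and 0.28 in CD11c+ cells. In CD11c+ cells it read 7.28, 7.44 and 7.59 in tolerised arrays, against 7.16, 7.12 and 7.19 in primed arrays, without overlap but without a call of its own (adjusted p = 0.24). The count was 2 without CD4+ tolerised replicate 2 or 3, CD4+ primed replicate 3 or CD11c+ tolerised replicate 1 or 2. Eif2s3y was high in CD4+ but not in CD11c+ tolerised arrays and high in primed arrays of both. It was low in abatacept arrays of both and in CD4+ control IgG arrays, and higher in CD11c+ control IgG arrays, with the values given above. The part of Eif2s3y in the interactions was not tested. Tolerised and primed CD4+ cells also came from different nodes, while CD11c+ cells of both groups came from a pool of spleen and lymph nodes. In the interaction of tolerised against primed mice, tissue and cell type cannot be told apart.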

How the data were processed

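Total RNA was amplified from 50 ng, labelled and hybridised to Affymetrix mouse arrays, per the labels. The deposited log2 values, 1 per probe set and array, were made by the authors with RMA, as the submitters' processing notes name it. Its version is not given here, and scanner files were not used here. Of 45118 probe sets, 28898 were annotated to 1 gene symbol, 551 to several and 15669 to none. All 66 member symbols were current in RefSeq.

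Every test used limma's lmFit and eBayes (version 3.58.1, R 4.3.3, two-sided), over the 15 arrays of a cell type (10 residual degrees of freedom), or over all 30 arrays (20) for cell types and interactions. Genes tested numbered 10322 in CD4+ T cells, 10203 in CD11c+ cells and 10838 over both. The number of arrays limits the precision. The procedure was tested on simulated data. Plots used Python 3.11.15 and matplotlib 3.10.9.

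The members, gene lists and rules were chosen with earlier results of these data known. Named in each comparison were always Hspa1b, Hspa8, Hspa5, Hsp90aa1, Hsp90b1, Hsph1, Hspe1, Hspb1, Dnaja1, Dnajb1 and Dnajc15, then the called members with the 8 largest rises and 8 largest falls (all called members where 10 or fewer were called), and at most 4 called genes of each other list. From these the text took a part, a choice made after values were seen and not by the stability of the calls. Some stable calls are therefore not described and some unstable ones are. Motif letters were searched in RefSeq promoter windows. Alternatives were a fit on the 2 groups alone, no filter, quantile normalization again, averaging a gene's probe sets, blocking on the replicate number and leaving out each array.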

Additional observations from a re-analysis of the deposited data

Results flagged for a closer look

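The following values are given because a difference between groups was not the same in the CD4+ and CD11c+ arrays, in an interaction test with limma over all 30 arrays. For abatacept against control IgG, the CD4+ difference minus the CD11c+ difference was -0.77 for Dnajc15, -0.83 for Hspa13, -0.39 for Hsp90b1 and 0.57 for Dnajb4 (adjusted p = 0.0017, 0.01, 0.021 and 0.039). For tolerised against primed mice it was -0.65 for Dnajc15 (adjusted p = 0.0073), where the source nodes differed between the CD4+ groups only. No explanation of these differences was tested.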

How the results depend on the processing

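The alternatives moved counts of called members more than directions. With only the 2 groups compared in the fit, the counts were 0 in place of 3 for CD4+ tolerised against primed, 5 in place of 8 for CD4+ abatacept against control IgG, 9 in place of 14 for CD11c+ primed and 12 in place of 20 for CD11c+ tolerised against unimmunised, and 3 in place of 1 for CD11c+ abatacept against control IgG. Quantile normalization again gave 1 for CD4+ tolerised against primed. Averaging a gene's probe sets gave 6 for CD4+ tolerised against primed, 1 in place of 0 for CD11c+ tolerised against primed, 2 for CD11c+ abatacept against control IgG and 2 in place of 1 for the interaction of tolerised against primed. It also turned 2 differences between CD4+ and CD11c+ cells, to -0.0496 for Dnajb5 (0.11 from the brightest probe set) and 0.14 for Dnajb6 (-0.14). In each case the cause was not tested.

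Leaving out each array in turn gave counts of 0 to 5 for CD4+ tolerised against primed, 4 to 8 for CD4+ abatacept against control IgG, 7 to 11 for CD11c+ primed against unimmunised, 0 to 2 for CD11c+ abatacept against control IgG, 2 to 4 for the interaction of abatacept and 1 to 2 for that of tolerised against primed. The interaction fits without single arrays, and the fits without unimmunised arrays, were chosen after seeing the data. Without the CD4+ unimmunised arrays CD4+ abatacept against control IgG gave 6 calls and CD4+ tolerised against primed 2.

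With the replicate number as a block (the replicate block), CD4+ primed against unimmunised gave 21 calls, CD4+ abatacept against control IgG 6 and CD11c+ tolerised against unimmunised 19. Arrays of the same number did not deviate together in every pair in any comparison (correlations between -0.23 and 0.283), nor did same-numbered arrays of the 2 cell types in any condition (-0.178 to 0.038), so the number was not taken as a pairing.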
